A study of Arabidopsis thaliana with 12 samples.

Results

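The genes described here are those that Columbia flowers switched on at stages 11-12, the last stages before the flower opens, and still held near that level at stages 13-14, when the flower is open. They were chosen on Columbia arrays alone, with s standing for signal + 50. The signal at stages 11-12 had to be 500 or more, s at stages 11-12 had to be at least 4 times that of stage 1-10 flowers and of stem, and s at stages 13-14 had to be more than 0.5 and less than 2 times that at stages 11-12. Control probe sets and 5 groups of symbols (SWEET, EXP, XTH, CYP and RALFL) were left out, which removed SWEET13, SWEET14 and EXPB5, 3 genes that met the value clauses. Of 22746 probe sets that are not controls, 162 met the rule. The probe table names 1 locus for 87 of them and several loci for 5. The 5 are counted, and named only where they hold pollen markers. The other 70 are not listed in it and are given by probe set.

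The samples came from Arabidopsis thaliana of Columbia background: 12 arrays in all, without repeats, for 3 genotypes and 4 tissues. The genotypes were the double mutant arf6 arf8, the intermediate plants titled arf6/arf6 ARF8/arf8, and Columbia wild-type. The study's design text writes the intermediate genotype as ARF6/arf6 arf8/arf8; under either reading 1 functional copy of ARF6 and ARF8 remained, and these are called single-copy plants. Untreated plants were grown for 6 weeks in long days, and RNA was taken from whole flowers of stages 1-10, of stages 11-12 and of stages 13-14, and from a piece of stem about 0.5 cm long. The probe table lists neither ARF6 nor ARF8, so the mutant genotypes were not checked against their own transcripts here.

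ARF6 and ARF8 are auxin response factors, proteins that bind DNA and set the transcription of genes that respond to auxin. They act together in the last steps of flower development, in which petals and stamen filaments elongate, anthers open, stigmas become receptive and nectaries secrete, and part of this runs through the hormone jasmonate. In the same window pollen grains ripen and store transcripts for the pollen tube, many of which encode enzymes that remodel pectin, the gel of the plant cell wall. Flowers were used whole, so fewer cells of a type and less RNA per cell cannot be told apart.

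In older flowers of arf6 arf8, 27 of the 162 genes were lower than in single-copy plants by the test described below, and none of these 27 rose there over younger tissue by the test. Their median signal was 95.4 and 71.1 at stages 11-12 and 13-14 in arf6 arf8, 1710 and 1600 in single-copy plants, and 1870 and 2662 in Columbia. They included a class III peroxidase, a pectin methylesterase inhibitor family member, a lipid transfer protein family member and an oxygenase that hydroxylates jasmonate. The other 135 were, as a group, bright in arf6 arf8 older flowers, with medians of 1240 and 850.8 against 1526 and 1618 in single-copy plants and 1492 and 1640 in Columbia. Most of the named pectin-acting enzymes belonged to these 135, as did most of the 162 genes. The plot of levels by tissue shows both groups.

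**Figure D1:**
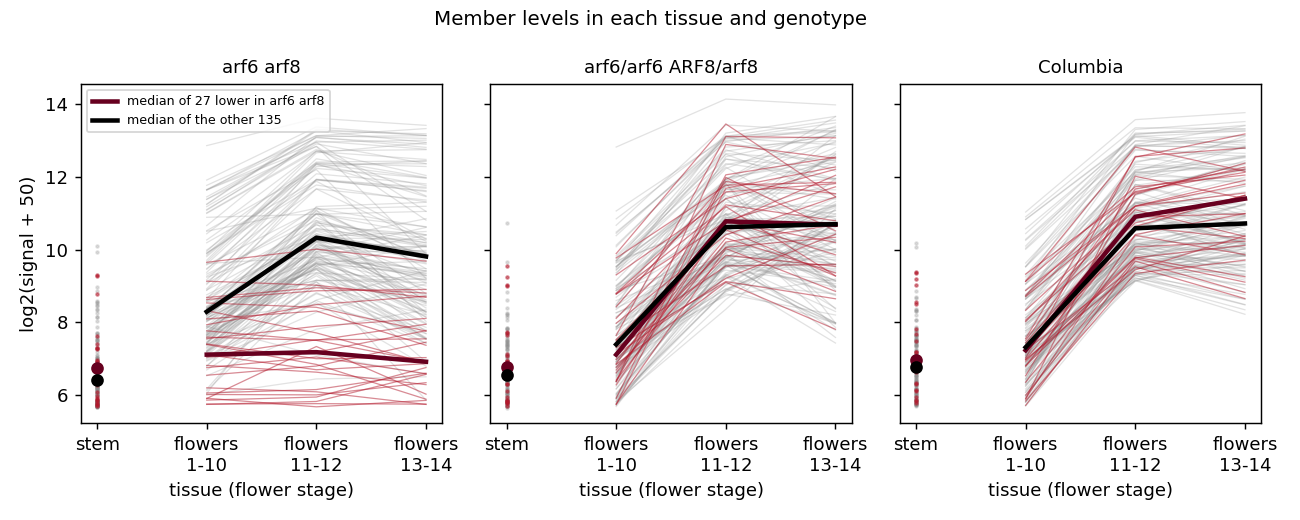
Level of each of the 162 genes, as log2(signal + 50), in stem and in flowers of stages 1-10, 11-12 and 13-14, with 1 panel and 1 array per tissue for arf6 arf8, single-copy plants and Columbia. Thin red lines are the 27 genes lower in arf6 arf8 by the test and thin grey lines the other 135; thick lines and large dots are medians. The median of the 27 genes stays flat in arf6 arf8 (95.4 signal at stages 11-12) and climbs in single-copy plants (1710) and Columbia (1870).

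The 12 arrays had median signals between 191.9 and 235.3 and a trimmed mean of 500.03 or 500.04, and 63.3% to 66.6% of probe sets reached a signal of 100. The single-copy arrays of stages 1-10 and 13-14 stood apart from Columbia, with 937 and 1012 probe sets that differed 2-fold or more, against 397 at stages 11-12 and 166 in stem. On the single-copy array of stages 13-14 the 3′ to 5′ ratio of the GAPDH control, a sign of RNA quality, was 0.655, against 0.922 to 1.61 on the others. Its part in the results below was not tested. Counts from the fit are given with these arrays and with each left out. Ratios within stages 1-10 or 13-14 need them and have no such value. Fits without both arrays took in the Columbia arrays, whose values chose the genes, and are no independent check.

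Because Columbia arrays chose the genes, tests used only the 8 mutant arrays. With 1 array per genotype and tissue, stages 11-12 and 13-14 stood in for replicates of older flowers, and stage 1-10 flowers and stem for replicates of younger tissue. Labels name no separate plants or harvests, so the p-values measure only the residual spread between these arrays, on 2 residual degrees of freedom. Differences are log2 differences of signal + 50 fitted with limma, which understate the change of dim genes, and adjusted p-values are Benjamini-Hochberg over 17647 probe sets with a threshold of 0.05.

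Older flowers of arf6 arf8 had lower levels than those of single-copy plants for 27 of the 162 genes (16.7%), against 0.878% of all probe sets tested. None was higher in limma, against 0.533% of all probe sets. At an unadjusted p under 0.05, 50 of the 162 were lower and 0 higher, against 1334 lower and 1602 higher of all 17647 probe sets. The fitted difference was below 0 for 133 genes, with a median of -0.48 on the log2 scale against 0.03 over all probe sets. The 27 genes made up 17.4% of the 155 lower calls in the whole table. The calls of the 27 genes also held with any 1 of the 8 arrays left out, but those fits were more lenient. Residual degrees of freedom fell from 2 to 1, while those that limma borrows from all probe sets rose from 4.14 to between 8.16 and 19. More probe sets were then called lower in the whole table, and more of the 162 genes. Without the single-copy array of stages 13-14 the count was 34, and without that of stages 1-10 it was 32. It was 43 without either mutant's array of stages 11-12. With both of those single-copy arrays left out, the fit needed the Columbia arrays that chose the genes. It also left 1 single-copy array per phase, so it cannot serve as a check.

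The 27 genes comprised 12 with 1 locus and 15 that the probe table does not list. AT1G30795, for which no role is stated here, had the largest difference among the 12. Its signals were 16.8, 21.3, 47.3 and 13.2 in arf6 arf8 at stages 1-10, 11-12 and 13-14 and in stem. In the same order they were 47.8, 1662, 4181 and 8.0 in single-copy plants and 61.6, 1546, 2843 and 31.3 in Columbia. The arf6 arf8 arrays stayed under 50 throughout, and its older-flower arrays did not overlap those of the other genotypes, which overlapped each other. The fitted difference in older flowers was -5.01 (SE 0.308, adjusted p = 0.00618) on the log2 scale.

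**Figure D2:**
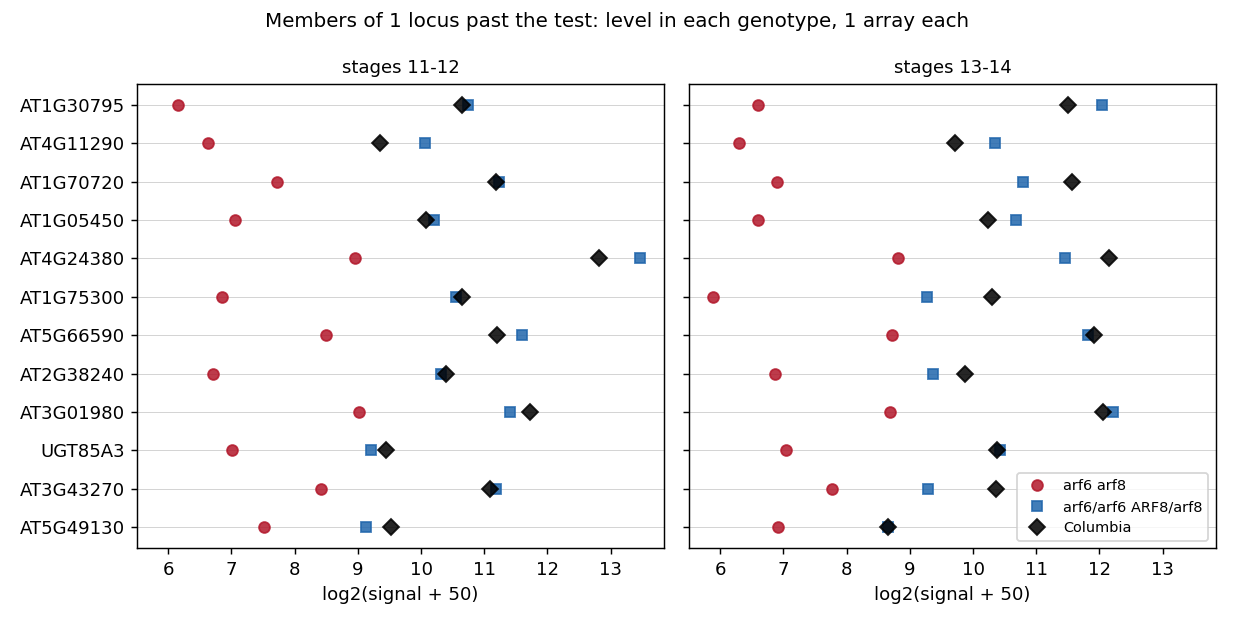
Level, as log2(signal + 50), of the 12 genes with 1 locus that were lower in arf6 arf8 than in single-copy plants, at stages 11-12 (left) and 13-14 (right). Each point is 1 array: circles arf6 arf8, squares single-copy plants, diamonds Columbia. For all 12 genes the arf6 arf8 point lies left of both others, and the single-copy and Columbia points lie closer to each other than either lies to it. The genes were picked as lower on these mutant arrays and as high in these Columbia arrays, so the separation is no separate evidence.

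Enzymes of redox and specialised metabolism were the most frequent among the 12, with 5 genes. This role group holds 11 of the 162 genes and was formed after the values had been seen. The class III peroxidase AT4G11290, of a family that uses hydrogen peroxide in the cell wall, had signals of 49.3 and 28.3 at stages 11-12 and 13-14 in arf6 arf8. It had 1023 and 1249 in single-copy plants and 603 and 790.2 in Columbia. The difference between the mutants was -3.74 (SE 0.251, adjusted p = 0.00697), and the arf6 arf8 values were no higher than its own stage 1-10 value of 62.9.

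AT2G38240 is a 2-oxoglutarate-dependent oxygenase that hydroxylates jasmonate and so lowers the active hormone. Its signals were 88.7, 54.0, 66.7 and 70.2 in arf6 arf8 from the youngest flowers through to stem, 53.5, 1230.2, 609 and 86.4 in single-copy plants and 101, 1298, 883 and 96.9 in Columbia. All 4 arf6 arf8 arrays lay under 100, whereas both older-flower arrays of each other genotype were several-fold brighter. The difference was -3.06 (SE 0.335, adjusted p = 0.0231). A related jasmonate-hydroxylating oxygenase, AT5G05600, had 343 and 635 in arf6 arf8 older flowers, 1854 and 852 in single-copy plants and 2167.5 and 1099.8 in Columbia. Its difference of -1.34 did not pass (adjusted p = 0.263), and its arf6 arf8 value at stages 13-14 was more than 0.5 of the single-copy value.

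The isoflavone-reductase-like gene AT1G75300 had 65.1 and 9.3 in arf6 arf8 older flowers, 1450.4 and 570.2 in single-copy plants and 1552 and 1216 in Columbia, a difference of -3.55 (SE 0.226, adjusted p = 0.00618). The short-chain dehydrogenase/reductase AT3G01980 had 471 and 363 in arf6 arf8, 2659 and 4695 in single-copy plants and 3349.8 and 4203 in Columbia, a difference of -2.95 (SE 0.324, adjusted p = 0.0231). Unlike the peroxidase, it kept a signal in every arf6 arf8 tissue, with 512.5 and 391.5 in stage 1-10 flowers and stem. UGT85A3, a UDP-glucosyltransferase, which attaches glucose to small molecules, had 78.4 and 81.1 in arf6 arf8, 544 and 1328 in single-copy plants and 647 and 1282 in Columbia. Its difference was -2.80 (SE 0.321, adjusted p = 0.0234). In all 3 genes both arf6 arf8 arrays were below both arrays of each other genotype.

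Among cell-wall genes the test called 1 inhibitor and 1 enzyme. AT1G70720 belongs to the pectin methylesterase inhibitor family, proteins that hold back enzymes that strip methyl groups from pectin. Its signals were 271, 159.8, 68.8 and 106 in arf6 arf8, 227, 2359, 1730.5 and 59.5 in single-copy plants and 211, 2291.5, 2972 and 96.7 in Columbia over the 4 tissues. In arf6 arf8 the stage 1-10 array was the brightest of the 4, the opposite of the order in both other genotypes, where the older flowers were brightest. The difference in older flowers was -3.71 (SE 0.237, adjusted p = 0.00618). The pectin methylesterase family gene AT3G43270 had 292 and 167 in arf6 arf8, 2279.7 and 573 in single-copy plants and 2143 and 1269 in Columbia, with a difference of -2.14 (SE 0.335, adjusted p = 0.0474). This call was lost with a pseudocount of 16 or 200 and with either other filter on dim probe sets, where the highest adjusted p was 0.0985.

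The lipid transfer protein family gene AT1G05450, of a group that carries lipids outside the cell, had 82.6 and 46.5 in arf6 arf8 older flowers, 1136 and 1600.0 in single-copy plants and 1029 and 1153 in Columbia. The difference was -3.63 (SE 0.306, adjusted p = 0.0116). AT5G66590, of the CAP superfamily of secreted proteins, had 309.8 and 373 in arf6 arf8, 3033 and 3564 in single-copy plants and 2310.3 and 3800.4 in Columbia, a difference of -3.10 (SE 0.246, adjusted p = 0.0109). In these genes the arf6 arf8 values were again the lowest at both stages. AT5G49130, of the MATE family of efflux transporters, had 132 and 71.1 in arf6 arf8, 509 and 352 in single-copy plants and 689.6 and 354 in Columbia. Its difference of -1.68 (SE 0.231, adjusted p = 0.0386) was the smallest of the 12 and did not pass with a pseudocount of 16 or with either other filter (highest adjusted p = 0.0889).

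AT4G24380, for which no role is stated here, was the brightest of the 12 in Columbia at stages 11-12. Its signals were 362, 446.5, 399 and 576 in arf6 arf8, 901, 11211, 2765 and 556 in single-copy plants and 512, 7196, 4519 and 539 in Columbia. The 4 arf6 arf8 values lay close together, stem included, and the older-flower arrays of both other genotypes were several-fold brighter. The difference in older flowers was -3.58 (SE 0.505, adjusted p = 0.0398). Without a filter on dim probe sets, AT4G24380, AT3G01980, AT2G38240 and UGT85A3 lost their calls, with adjusted p-values of 0.0889, 0.0596, 0.0624 and 0.0668. AT1G30795, AT4G11290, AT1G70720, AT1G05450, AT1G75300 and AT5G66590 were called under every alternative run.

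Of the 15 called probe sets without a listed gene, 257220_at had the largest difference. Its signals were 3.7, 6.8, 45.2 and 3.4 in arf6 arf8, 33.4, 7566, 5789 and 5.4 in single-copy plants and 80.0, 6007.5, 7079 and 178 in Columbia. The arf6 arf8 arrays were close to the bottom of the scale in all 4 tissues, and the older-flower arrays of both other genotypes were bright. The difference was -6.50 (SE 0.334, adjusted p = 0.00416). Next came 267431_at, 264430_at and 259574_at, with differences of -6.06 (SE 0.308, adjusted p = 0.00416), -5.62 (SE 0.426, adjusted p = 0.00935) and -5.62 (SE 0.264, adjusted p = 0.00416).

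The size of the genotype difference itself differed between older flowers and younger tissue for 4 of the 162 genes, which were 267431_at, 257220_at, 259574_at and AT1G70720. Over all probe sets, 0.034% passed in this direction and 0.0% in the other. The difference of differences was -6.25 (SE 0.436, adjusted p = 0.0463), -6.16 (SE 0.473, adjusted p = 0.0463), -5.21 (SE 0.373, adjusted p = 0.0463) and -4.07 (SE 0.335, adjusted p = 0.0469) in that order. At an unadjusted p under 0.05 limma gave 48 of the 162 genes in this direction and 0 in the other, against 589 and 456 of all 17647 probe sets. This count of 4 rested on the settings: it was 0 with a pseudocount of 16, 17 with flower arrays alone, and 2 without both single-copy arrays that stood apart and with the Columbia arrays added. Without the single-copy array of stages 13-14 or another of the 8 arrays it ranged between 15 and 33.

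Within arf6 arf8, 95 of the 162 genes (58.6%) rose in older flowers over younger tissue, against 5.14% of all probe sets. Within single-copy plants 149 (92%) rose, against 4.1%. Without the 2 single-copy arrays that stood apart, the fit rested partly on Columbia arrays that the rule required to rise, so it gives no check. None fell in limma in either genotype, against 2.97% of all probe sets in arf6 arf8 and 0.765% in single-copy plants. At an unadjusted p under 0.05, 1 was lower in arf6 arf8 and 0 in single-copy plants. The median rise was 2.21 in arf6 arf8 and 3.48 in single-copy plants on the log2 scale. All 27 genes of the lower group rose in single-copy plants and none in arf6 arf8 by the test, where their median was 0.22 and 1 was lower at an unadjusted p under 0.05. These contrasts share the older-flower arrays that picked out the 27 genes and are not separate evidence.

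The rule's clauses were also counted in the mutant arrays, as a description without a test. A signal of 500 or more at stages 11-12 was reached by 123 genes in arf6 arf8 and 149 in single-copy plants. A level of 4 times or more that of stage 1-10 flowers was reached by 69 genes in arf6 arf8 and 139 in single-copy plants, and the same over stem by 121 genes in arf6 arf8 and 154 in single-copy plants. Hence the clause least often met in arf6 arf8 was the one on stage 1-10 flowers. All 3 clauses together were met by 67 genes in arf6 arf8 and 129 in single-copy plants.

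The plateau clause was also counted alone, whatever the level at stages 11-12. In arf6 arf8, 117 genes stayed within 2-fold at stages 13-14, 45 were at 0.5 times or less and 0 were at 2 times or more. In single-copy plants 88 stayed within 2-fold, 36 were at 0.5 times or less and 38 were at 2 times or more. Genes dim at both stages in arf6 arf8 count as within 2-fold, such as 249349_at with 4.5 and 4.0. The single-copy counts also rest on the array of stages 13-14 that stood apart. The 117 against 88 therefore does not show that arf6 arf8 held the plateau better. The whole rule was met by 47 genes in arf6 arf8 and 72 in single-copy plants. A signal below 200 at both stages was found for 21 genes in arf6 arf8 and 0 in single-copy plants.

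Single tissues were compared by the ratio of signal + 50, counting differences of 2-fold or more where the brighter array reached 200. Percentages in parentheses are the share of all 17647 probe sets that met the same condition. At stages 11-12, 44 of the 162 genes were 2-fold lower in arf6 arf8 than in single-copy plants (4.52%), and 15 were higher (7.59%). At stages 13-14, 71 were lower (5.04%) and 1 was higher (5.07%). In stem 2 were lower (0.589%) and 3 were higher (0.935%). The median ratio on the log2 scale was -0.13 at stages 11-12, -0.85 at stages 13-14 and -0.13 in stem, against 0.07, -0.03 and 0.0 over all probe sets. The deficit in arf6 arf8 thus covered more genes at stages 13-14, the tissue in which the single-copy array stood apart.

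**Figure D3:**
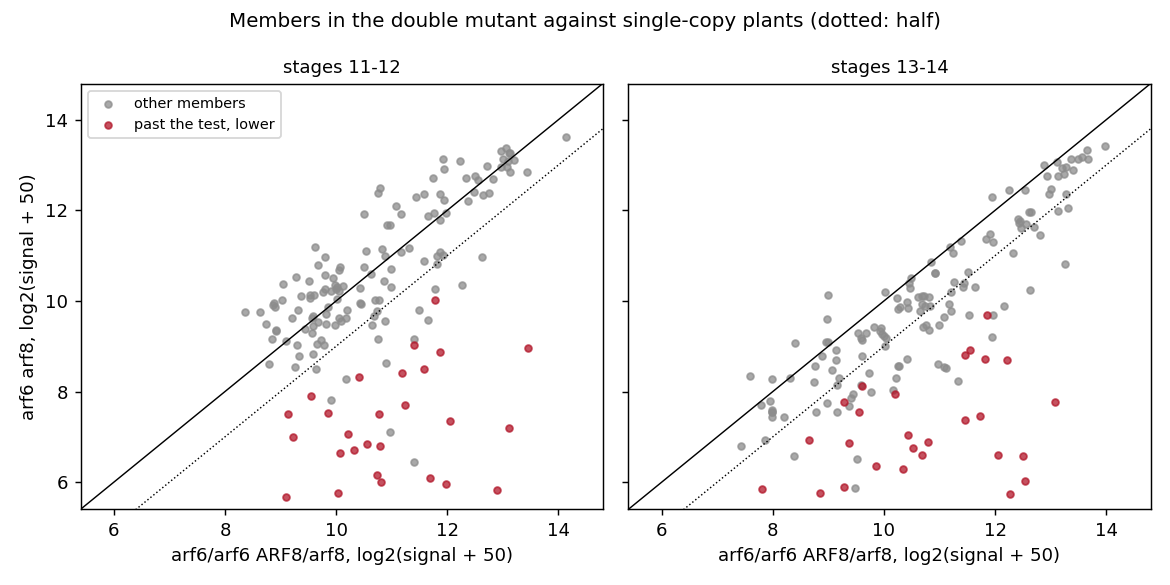
Level in arf6 arf8 (vertical) against single-copy plants (horizontal), both as log2(signal + 50), at stages 11-12 (left) and 13-14 (right), 1 point per gene and 1 array per genotype. Red points are the 27 genes lower by the test; the solid line marks equal levels and the dotted line 0.5 of the single-copy level. At stages 11-12, 118 of the 162 genes lie on or above the dotted line and at stages 13-14, 90 do.

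Against Columbia the same counts are given without reading, since these arrays chose the genes. At stages 11-12, 40 genes were 2-fold lower in arf6 arf8 than in Columbia (3.94%) and 4 were higher (3.58%). At stages 13-14, 84 were lower (5.51%) and 1 was higher (5.34%). Single-copy plants were 2-fold lower than Columbia for 5 genes at stages 11-12 (1.76%) and for 23 at stages 13-14 (2.98%), and higher for 2 (0.493%) and 7 (2.76%). The median log2 ratio of single-copy plants to Columbia was -0.05 at stages 11-12 and -0.11 at stages 13-14, and that of arf6 arf8 to Columbia was -0.25 and -1.04. In stem, 3 genes were lower in arf6 arf8 than in Columbia (1.62%) and 2 were higher (2.53%), and single-copy plants had 0 lower (0.504%) and 0 higher (0.436%).

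The 162 genes were then sorted by whether arf6 arf8 kept 0.5 or more of the single-copy signal + 50. It did so at both stages for 76 genes, at stages 11-12 alone for 42, at stages 13-14 alone for 14 and at neither stage for 30. Set against Columbia, the numbers were 73, 49, 5 and 35. The 30 genes at neither stage held all 27 called genes. The other 3 were AT3G12000, AT5G02580 and AT3G22240, with adjusted p-values of 0.0596, 0.0714 and 0.0685.

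AT3G12000, related to the S-locus glycoproteins that mark the stigma side of self-incompatibility in other Brassicaceae, had 14.3, 37.3, 40.9 and 41.8 in arf6 arf8 over the 4 tissues. It had 420.0, 2650.5, 682.5 and 56.6 in single-copy plants and 356, 2688, 1463 and 47.2 in Columbia. All 4 arf6 arf8 arrays, the youngest flowers included, were below 50, and the 2 older-flower arrays of single-copy plants lay far apart. The difference in older flowers was -3.98 and missed the threshold (SE 0.697, adjusted p = 0.0596). AT5G02580, with no role stated here, had 87.9 and 45.4 in arf6 arf8 older flowers, 1962 and 281.5 in single-copy plants and 1054 and 570.5 in Columbia, a difference of -2.83 (SE 0.537, adjusted p = 0.0714).

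Roles could be stated for 56 of the 87 genes with 1 locus, and these groups were formed after the values had been seen, so their counts are descriptions. The cell wall gave the largest set: 13 encode pectin-acting enzymes and 6 belong to the pectin methylesterase inhibitor family. In arf6 arf8, 0.5 or more of the single-copy level was kept at both stages by 7 of the 13 enzymes and 5 of the 6 inhibitors, and at stages 11-12 alone by 5 further enzymes. Of all 162 genes, 76 kept it at both stages and 42 at stages 11-12 alone. The median difference in older flowers was -0.26 for the enzymes and -0.18 for the inhibitors. Older flowers rose over younger tissue in arf6 arf8 for 8 of the 13 enzymes and 5 of the 6 inhibitors, and in single-copy plants for all 13 and all 6.

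**Figure D4:**
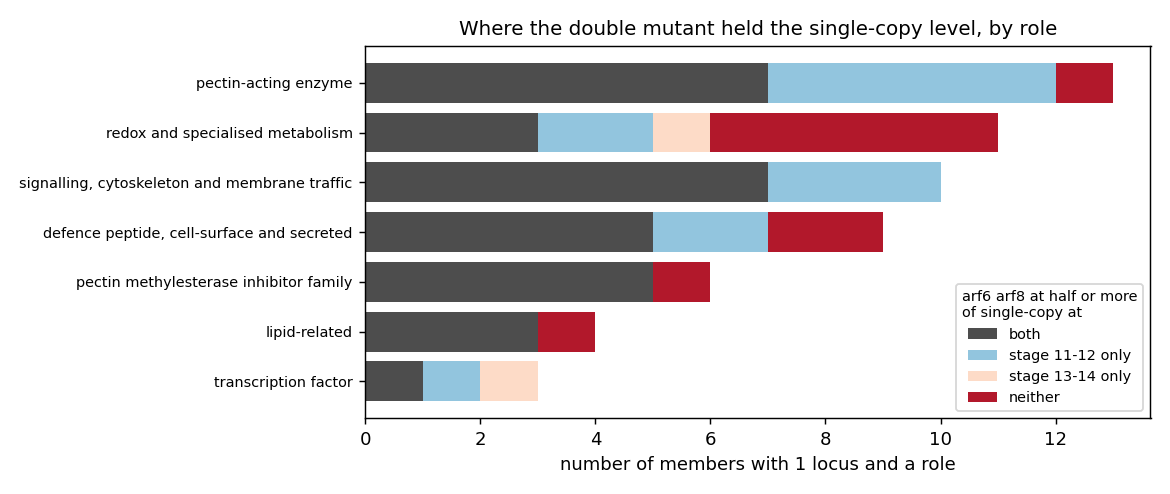
Number of genes with 1 locus and a stated role in which arf6 arf8 kept 0.5 or more of the single-copy signal + 50, by role (vertical) and by the stages at which it did (colours). Of 13 pectin-acting enzymes 7 kept it at both stages, and of 11 genes of redox and specialised metabolism 5 kept it at neither.

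Polygalacturonases and pectate lyases cut the pectin chain. The polygalacturonase AT3G07820 had 2377, 9828, 7860.5 and 20.6 in arf6 arf8, 774, 8879, 9908 and 29.0 in single-copy plants and 529, 9211, 10161 and 88.4 in Columbia. The older-flower arrays of all genotypes were bright and overlapped, and the difference between the mutants was -0.09 (SE 0.421, adjusted p = 0.936). In stage 1-10 flowers, by contrast, arf6 arf8 had the highest of the 3 values. The pectate lyase AT3G01270 had 2626.5, 8696, 7155.5 and 55.8 in arf6 arf8, 1034, 8671, 9637 and 87.9 in single-copy plants and 1005, 8124.5, 8984.5 and 138.5 in Columbia, and the polygalacturonase AT5G48140 had 3871 and 3323 in arf6 arf8 older flowers, 3410.0 and 5453 in single-copy plants and 2922 and 5269.8 in Columbia. Both were bright in older flowers of all genotypes, with differences of -0.21 (adjusted p = 0.84) and -0.26 (adjusted p = 0.843). A p above the threshold, here and below, does not show that levels were equal.

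Pectin methylesterases remove methyl groups from pectin. AT5G07420 had the steepest increase of the named genes with 1 locus in Columbia, 44.4-fold in signal + 50 between stages 1-10 and 11-12. Its signals were 277, 2131, 212 and 5.5 in arf6 arf8, 5.1, 3673, 1100.0 and 7.6 in single-copy plants and 30.3, 3514, 2104 and 16.3 in Columbia. In arf6 arf8 it was bright at stages 11-12 and dim again at stages 13-14, where both other genotypes were still bright. The difference over both stages was -1.45 (SE 0.634, adjusted p = 0.323) and did not pass. AT3G06830, AT4G15980 and AT5G27870, of the same family, likewise had 0.5 or more of the single-copy level at stages 11-12 alone, as did the pectate lyase AT5G15110.

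The neighbouring gene of the same family, AT5G07430, kept its level at both stages, with 4776 and 3962 in arf6 arf8, 3884 and 6369 in single-copy plants and 4663 and 5932 in Columbia (difference -0.19, adjusted p = 0.867). AT3G05610 was brighter in arf6 arf8 than in single-copy plants at stages 11-12 and dimmer at stages 13-14, with 2283 and 2479 in arf6 arf8, 738 and 3926 in single-copy plants and 1182 and 2394 in Columbia. Its difference was 0.46 (SE 0.6, adjusted p = 0.756). Probe sets of such families can share targets between close relatives, which was not tested.

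In the inhibitor family 1 of 6 genes was called. Beside that gene, AT1G70720, the gene AT4G02250 had 5132 and 3427 in arf6 arf8 older flowers, 6349 and 5579 in single-copy plants and 5339.5 and 8376 in Columbia, and AT1G10770 had 8800.4 and 8949.8 in arf6 arf8, 9403 and 12960.4 in single-copy plants and 7539.8 and 10828 in Columbia. AT2G47050 had 8094 and 6915 in arf6 arf8, 6658 and 8971 in single-copy plants and 7314 and 7223 in Columbia. AT5G50030 and AT3G62180 were of the same kind, with differences of 0.10 and 0.12. None of these 5 differences passed, the adjusted p-values running between 0.531 and 0.966, whereas AT1G70720 stood at -3.71.

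Genes of signalling, the cytoskeleton and membrane traffic numbered 10, of which 7 kept 0.5 or more of the single-copy level at both stages and 3 at stages 11-12 alone. None was called between the mutants in limma, and 1 was lower at an unadjusted p under 0.05. In arf6 arf8 9 of the 10 rose in older flowers, and in single-copy plants all 10 did. PLIM2b, a LIM-domain protein that bundles actin filaments, had 1172.5 and 891 in arf6 arf8 older flowers, 971.5 and 1199.6 in single-copy plants and 1092 and 1295 in Columbia, a difference of -0.08 (SE 0.314, adjusted p = 0.931). AT4G39110, a receptor-like kinase, was brighter in arf6 arf8 at stages 11-12 and dimmer at stages 13-14, with 809.5 and 664 in arf6 arf8, 347 and 1677 in single-copy plants and 532.5 and 726 in Columbia.

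The 3 transcription factors showed 3 courses. BPEp, a bHLH protein that limits petal size, had 739, 839.8, 552 and 114 in arf6 arf8, 469.8, 2845, 979 and 151 in single-copy plants and 429, 2463, 1327 and 153 in Columbia. Its arf6 arf8 value at stages 11-12 was the lowest of the 3 genotypes and close to that of its own stage 1-10 flowers. The difference of -1.24 (SE 0.345, adjusted p = 0.158) did not pass. AGL66, a MADS-domain factor of pollen maturation, had 597 and 142 in arf6 arf8 older flowers, 435 and 202 in single-copy plants and 518 and 249 in Columbia, with a difference of 0.01 (adjusted p = 0.989). The bZIP gene AT1G35490 had 1986 and 1308 in arf6 arf8, 1826 and 2726 in single-copy plants and 1778 and 2329 in Columbia.

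The remaining genes of redox and specialised metabolism were not called, and 3 of the 11 kept 0.5 or more of the single-copy level at both stages. A second class III peroxidase, AT5G47000, had 3869.8 and 3055 in arf6 arf8, 3981 and 5638 in single-copy plants and 3776 and 6021 in Columbia, a difference of -0.46 (SE 0.409, adjusted p = 0.626). So of 2 peroxidases, 1 was called and the other was bright in older flowers of every genotype. GILT, of the lysosomal thiol reductase family, had 8949 and 10262 in arf6 arf8, 3839 and 12884 in single-copy plants and 3892 and 7285 in Columbia. AT5G19580, related to glyoxal oxidases, had 6671 and 4169 in arf6 arf8, 3372 and 10078 in single-copy plants and 7441.5 and 7018.5 in Columbia, and neither difference passed (adjusted p = 0.759 and 0.947).

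THI2.1, a thionin of plant defence that jasmonate induces, was the brightest of the named genes in Columbia. Its signals were 7403, 12511, 10914.5 and 129.5 in arf6 arf8, 7203, 18047, 16149 and 130.3 in single-copy plants and 2051.5, 12176, 13922 and 277 in Columbia. Both mutants were already brighter than Columbia in stage 1-10 flowers, and the difference between the mutants in older flowers, -0.54 (SE 0.189, adjusted p = 0.234), did not pass. LCR72, of the defensin family, had 1839 and 781 in arf6 arf8 older flowers, 3005 and 2911 in single-copy plants and 2844 and 5544 in Columbia (difference -1.26, adjusted p = 0.262). The Ole e 1 family gene AT5G45880, named after a pollen allergen of olive, had 9796 and 9291 in arf6 arf8, 8849 and 12071 in single-copy plants and 9186 and 10933 in Columbia. AT5G26700, of the cupin superfamily, had 5201.5 and 5221.5 in arf6 arf8, 3718 and 7999.9 in single-copy plants and 4257 and 6129.9 in Columbia. The last 2 had differences near 0, of -0.12 and -0.07.

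Outside these groups, AT5G61720 and AT3G28830 had a large gap between the older stages in arf6 arf8. AT5G61720 had 4672 and 542 at stages 11-12 and 13-14 in arf6 arf8, 5239 and 3891 in single-copy plants and 6031 and 4494 in Columbia. AT3G28830, which like AT5G61720 encodes a protein of unknown function, had 7279.9 and 894 in arf6 arf8, 8923 and 4534 in single-copy plants and 8953.5 and 7448 in Columbia. In both, arf6 arf8 was near the other genotypes at stages 11-12 and several-fold below them at stages 13-14, and neither difference over both stages passed (adjusted p = 0.306 and 0.256). AT2G26490, a WD40-repeat protein, was the only gene with 1 locus whose arf6 arf8 value exceeded the single-copy value at both stages. It had 1076 and 733 in arf6 arf8, 732 and 450.3 in single-copy plants and 689.9 and 866 in Columbia, a difference of 0.59 (SE 0.404, adjusted p = 0.516). AT3G28750, of no stated role, had 10117 and 9012 in arf6 arf8, 7995 and 10461 in single-copy plants and 10099 and 11735 in Columbia.

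In stage 1-10 flowers many of the genes were brighter in arf6 arf8. The median signal of the 162 genes was 229.2 in arf6 arf8, 115.5 in single-copy plants and 107.5 in Columbia. The ratio of arf6 arf8 to single-copy plants was 2-fold or more for 49 genes (4.71%) and 0.5 or less for 5 (1.72%), with a median log2 ratio of 0.67 against 0.10 over all probe sets. To Columbia, whose low stage 1-10 values the rule required, 52 were higher (1.07%) and 3 were lower (0.986%), with a median of 0.82. Single-copy plants were 2-fold higher than Columbia for 8 (1.6%) and lower for 1 (3.71%), with a median of 0.03. This comparison has 1 array per genotype and no test, and the single-copy array of stages 1-10 is one of the 2 that stood apart. The counts against Columbia rest on values the rule used and lend no support to those against single-copy plants.

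All 49 genes came from the 135 that the test did not call in older flowers. Of the 76 genes that kept 0.5 or more of the single-copy level at both older stages, 75 were above single-copy plants in stage 1-10 flowers and 34 were so by 2-fold or more. Of the 42 kept at stages 11-12 alone, 40 were above and 15 by 2-fold. Of the 30 kept at neither stage, 10 were above and 0 by 2-fold. Among the 13 pectin-acting enzymes the median log2 ratio was 1.52. GILT had 3183 and 26.0 in stage 1-10 flowers and stem in arf6 arf8, 697 and 32.2 in single-copy plants and 421 and 50.4 in Columbia. AT5G07420 had 277 and 5.5 in arf6 arf8, 5.1 and 7.6 in single-copy plants and 30.3 and 16.3 in Columbia, so the excess was seen in young flowers and not in stem.

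**Figure D5:**
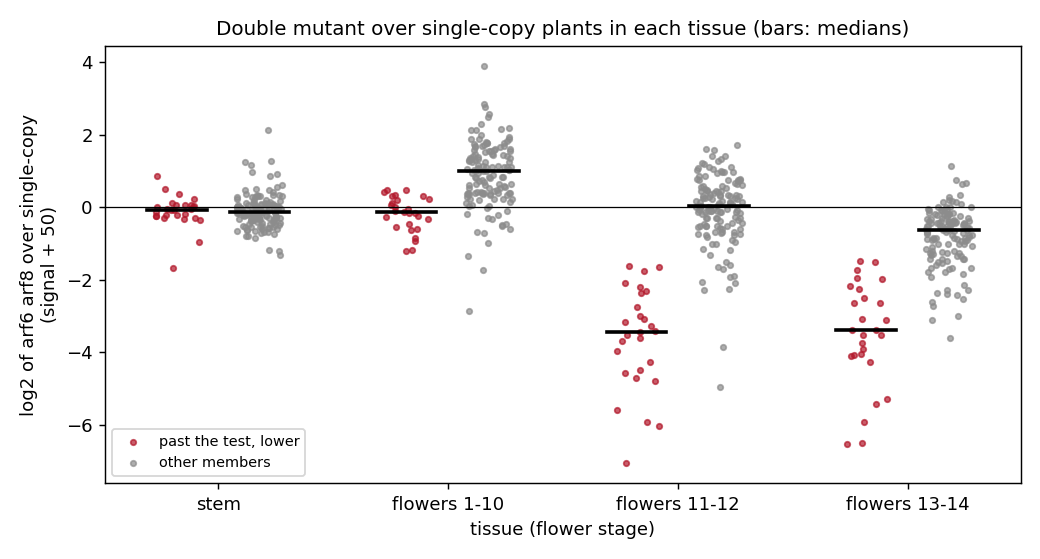
Log2 ratio of arf6 arf8 to single-copy plants (signal + 50), 1 point per gene, in stem and in flowers of stages 1-10, 11-12 and 13-14, 1 array per genotype and tissue. Red points are the 27 genes lower by the test in older flowers, grey points the other 135, and black bars medians. The 27 genes centre on -0.13 in stage 1-10 flowers and -3.43 at stages 11-12, and the other 135 on 1.00 and 0.03.

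Markers of other cell types were read beside these results. Of 27 pollen markers 5 have a kept probe set of 1 locus (ACT12, ANX1, ANX2, MGH3 and TUA1). None of these belongs to the 162 genes or was called between the mutants. Probe sets of several loci, left out of the sums, hold other pollen markers and are among the 162 genes. VGD1 with VGDH1 had 8971 and 8496.5 in arf6 arf8 older flowers, 8214 and 8870 in single-copy plants and 8793 and 9785 in Columbia. PPME1 with AT5G07410 had 7911 and 2078 in arf6 arf8, 7937 and 5089.5 in single-copy plants and 8703 and 6999 in Columbia. Neither was called. The summed signal of the 5 genes in stage 1-10 flowers was 1034.5 in arf6 arf8, 541.4 in single-copy plants and 820.4 in Columbia. At stages 11-12 it was 3197.6 in arf6 arf8, 1740.0 in single-copy plants and 2825.9 in Columbia. At stages 13-14 it was 2225.0 in arf6 arf8, 4302.6 in single-copy plants and 3024.8 in Columbia. TUA1, which also had 604.9 in stem in arf6 arf8, 512.2 in single-copy plants and 679.9 in Columbia, gave most of each flower sum in arf6 arf8. The markers did not all run with the sum: MGH3 had 166.6 at stages 11-12 in arf6 arf8 against 317.1 in single-copy plants, and ANX1 had 142.7 at stages 13-14 in arf6 arf8 against 114.0 in single-copy plants. Their part in the results was not tested. Among the 5 genes of the sum limma gave 1 lower and 0 higher at an unadjusted p under 0.05.

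Of 14 tapetum markers, for the anther layer that feeds pollen, AMS and AT5G07230 were measured. Their sum in stage 1-10 flowers was 2559.7 in arf6 arf8, 4314.3 in single-copy plants and 4849.7 in Columbia, and in older flowers it was below 200 in every genotype. AT5G07230 gave most of the stage 1-10 sum, and AMS there ran the other way between the mutants, with 609.5 in arf6 arf8 against 448.3 in single-copy plants. Of 6 nectary markers, JMT and SWEET9 were measured, and SWEET9, which exports sucrose into nectar, was lower in arf6 arf8 (log2 difference -4.58, adjusted p = 0.0124). SWEET9 had 46.7 and 83.9 in arf6 arf8 older flowers, 1350.5 and 5201.4 in single-copy plants and 1310.2 and 5520.5 in Columbia. It moved with the 27 genes, and whether those lie in the same cells was not tested.

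Lists of other pathways held few of the genes. Counting genes with 1 locus, the jasmonate response list held THI2.1 alone and the self-incompatibility list AT3G12000 alone. No other list held any such gene. Of the jasmonate synthesis genes JMT and OPCL1 were measured, with a median difference of -1.39 and no call (JMT adjusted p = 0.0571). Of 3 terpene and scent genes 1, AT5G44630, was lower (-3.58, adjusted p = 0.0234). Of 3 flavonoid genes none was called in limma, also at an unadjusted p under 0.05. Of 3 early auxin response genes 1 was higher in arf6 arf8, WES1, an enzyme that joins auxin to amino acids (2.39, adjusted p = 0.0267), beside HAT2 at 1.44 (adjusted p = 0.0549).

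Genes that met the same clauses at stages 11-12 but went on otherwise in Columbia were set beside the plateau genes. Of 64 that gained 2-fold or more by stages 13-14, 7 (10.9%) were lower in arf6 arf8 than in single-copy plants in older flowers, and of 74 at 0.5 times or less at stages 13-14, 6 (8.11%) were. The plateau genes stood at 27 of 162 (16.7%); whether these shares differ was not tested. The symbols left out of the plateau genes were not left out of the other groups, and SWEET9 is among the 7. The median difference was -0.30 and -0.23 in those groups and -0.48 in the plateau genes.

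The thresholds divided a continuous range. At the signal of 500 the nearest genes inside were 258753_at, 262146_at and AGL66 with 512.3, 513.6 and 517.9, and the nearest outside were 257065_at, AT2G18180 and 262113_at with 497.7, 487.6 and 482.5. At 4 times the stage 1-10 level, the nearest inside was 255837_at with 4.07 and the nearest outside AT5G15140 with 3.95. At 4 times stem, AT3G14560 with 4.10 lay inside and 264588_at with 3.95 outside. At the lower bound of the plateau, 260693_at with a ratio of 0.502 lay inside and AT1G72290 with 0.492 outside, and at the upper bound AT2G02720 lay inside with 1.99.

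In the gene order of the RefSeq annotation, 7 of the 87 loci (8.05%) had another within 5 places, in 3 groups. No share for other sets of loci is at hand, so whether this is many cannot be read. AT3G01240, AT3G01250 and AT3G01270 lie together on chromosome 3, AT5G07420 and AT5G07430 on chromosome 5, and AT5G49130 and AT5G49180 elsewhere on chromosome 5. Neighbours did not always share a course: AT5G49130 was called lower, whereas AT5G49180, of the pectin methylesterase family, had 1435.5 and 1040.4 in arf6 arf8 older flowers, 571 and 1520.0 in single-copy plants and 624 and 475 in Columbia (difference 0.37, adjusted p = 0.762).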

How the data were processed

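RNA from 12 samples was hybridised to 1-colour oligonucleotide arrays. The deposited values are signal intensity on a linear scale, 1 per probe set, which the authors made with MAS5, per the submitters' processing notes, its version not given in the sources used here. After removal of 2% of values at each end, array means were 500.03 or 500.04, so each array had been scaled globally and was used as deposited. The number of arrays limits the precision.

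Values were transformed as log2(signal + 50). After removal of control probe sets, 17647 of 22746 were kept for a signal of 100 or more in at least 1 of the 12 arrays, Columbia included. All 162 genes described passed, through their Columbia signal. With limma 3.58.1 under R 4.3.3, lmFit and a trended eBayes were applied to the 8 mutant arrays with genotype by phase plus tissue within phase. Tests were two-sided. Tables were handled with Python 3.11.15, pandas 2.3.3 and numpy 2.4.6. On simulated data with known changes in older flowers over 17647 probe sets, 76% of 100 changes of 1.5 on the log2 scale were recovered. Of 100 changes of 3, 100% were recovered. There were also 21 false calls, a larger share of the calls than the adjusted p threshold is meant to allow. The calls on the real arrays may therefore hold more false ones than that threshold implies.

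Gene names came from the platform's probe table, joined to a RefSeq gene table (TAIR10.1) by locus; 13513 probe sets have 1 gene, 503 several and 8730 none. Gene start coordinates were used only to order the loci for the count of neighbours. No sequences were used, and promoter motifs were not analysed here. Genes named by rule were the largest falls and rises between the mutants with the same sign at both stages, the brightest and steepest in Columbia, those closest between the mutants, members of pathway lists, and those nearest each threshold. Other genes named, and the role groups, were chosen after their values were seen. The genes, lists and tests were chosen with earlier results of these data known. Keyword classes on gene names matched only 4 of the genes (AGL66, GILT, LCR72 and THI2.1) and were not used further. Alternatives were other pseudocounts (16 and 200), quantile normalization, other filters, no trend, all 12 arrays with and without the 2 that stood apart, flower arrays alone and leaving out each array.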

Additional observations from a re-analysis of the deposited data

Results flagged for a closer look

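For 4 genes the difference between arf6 arf8 and single-copy plants was itself different in older flowers and in younger tissue by the limma interaction test. The fitted log2 values were -6.25 for 267431_at, -6.16 for 257220_at, -5.21 for 259574_at and -4.07 for AT1G70720. Over the whole set of 162 genes the median log2 ratio of arf6 arf8 to single-copy plants was 0.67 in stage 1-10 flowers and -0.85 in flowers of stages 13-14. This change of sign between stages rests on 1 array per genotype and stage, on the 2 single-copy arrays that stood apart, and was not tested. The cause of these differences was not tested.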

How the results depend on the processing

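No paired analysis was possible because the labels give no replicate numbers to serve as a block, beyond the pairing of genotypes by tissue that the fit already holds as a term. For the difference between the mutants in older flowers, signs were checked for the called genes and most of those named by rule. None reversed where the main or the alternative fit passed the threshold. Sign changes of differences that passed in neither fit were not counted. The 27 genes lower in arf6 arf8 than in single-copy plants in older flowers numbered 22 to 36 under the other alternatives, 14 without a filter, and 32 to 43 when 1 of the 8 arrays was left out. The 14 were called under every alternative. Fits with an array left out leave an arm with a lone array, which is assumed to vary like the others. Fits with the Columbia arrays added reuse values that chose the genes. The 4 genes of the older-minus-younger difference numbered 0 with a pseudocount of 16, without a filter, with a signal of 200 in at least 3 arrays or without a trend. They numbered 18 with all 12 arrays, 2 with those less the 2 arrays that stood apart, 17 with flower arrays alone and 15 to 33 with 1 array left out. Rises in arf6 arf8 numbered 95, 60 without a filter and 66 to 137 with 1 array left out; in single-copy plants they numbered 149, and 134 to 162. Of ratio counts, a pseudocount of 200 gave, for arf6 arf8 over single-copy plants, 3 lower at stages 1-10 (5), 9 higher at stages 11-12 (15) and 0 higher at stages 13-14 (1), with the reported counts in parentheses. For arf6 arf8 over Columbia it gave 2 higher at stages 11-12 (4) and 0 higher at stages 13-14 (1), also 0 with quantile normalization. For single-copy plants over Columbia it gave 1 higher at stages 11-12 (2) and 12 lower at stages 13-14 (23). The alternatives for stage 1-10 flowers were chosen after seeing the data, and its 49 higher genes numbered 35 to 68. Causes were not tested.

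Over all probe sets, lower calls in older flowers numbered 155 and higher calls 94, against 42 and 11 without a filter, 348 and 368 with all 12 arrays, and 796 and 1386 with those less the 2 arrays that stood apart. Some settings therefore moved the balance of calls in the whole table, and 0 of the 162 genes was called higher in arf6 arf8 under any of these.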
